A study of Homo sapiens with 7 samples.

Results

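The collagen genes described here are the rows of 3 single-cell count tables whose symbol is COL followed by a type number, the letter A and a chain number. This rule found 44 genes among the 27981 named in the tables. They were 11 chains of fibrillar collagens, 9 chains of network collagens and 24 chains of other types. The other types were 10 chains of fibril-associated collagens (FACIT), 5 chains of collagen VI (which forms beaded filaments), 4 transmembrane collagens, 2 multiplexins, 1 anchoring fibril chain and 2 genes placed in no type. All 44 were listed at day 11 and 42 in each day 15 table, and 41 were listed in all 3. COL4A3 and COL10A1 were not listed with DMSO, and COL4A3 and COL28A1 were not listed with CHIR.

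All cells derived from H1 embryonic stem cells, an established human line, taken through a cardiac differentiation. There were 3 single-cell RNA libraries: day 11, for which the labels name no treatment, day 15 after the solvent DMSO, and day 15 after CHIR, a name in common use for a compound that switches on canonical Wnt signalling by blocking the kinase GSK3. The study was about making muscle cells of the atrioventricular canal, the part of the embryonic heart where the endocardial cushions form. Cells of each library were freed with collagenase type 4 and Accutase and sorted as live, and transcript ends were counted as unique molecular identifiers (UMIs). The labels give neither the dose of CHIR nor the day it was added. Each group had 1 library from 1 line, so no difference below has a replicate check, no test was run and every interval covers counting error only.

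Collagens are secreted proteins whose chains wind around each other in a helix, and they make up most of the extracellular matrix of connective tissue. Fibrillar collagens form the banded fibres of stroma, tendon and cartilage, network collagens such as collagen IV form the sheet of basement membranes on which muscle, epithelial and endothelial cells sit, and the other types link fibres, line membranes or release signalling fragments. In the heart, cushion mesenchyme and fibroblasts are known as the main producers of fibrillar collagens, while muscle cells are wrapped in a basement membrane of collagen IV.

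The genes of collagen IV lie in head-to-head pairs that share the stretch between their start sites, which is why that stretch is shown for the pairs expressed here. The stretch of the third pair, COL4A4 and COL4A3, is not shown because it overlaps COL4A4 as the RefSeq gene table places it. The bases shown lie outside both genes of a pair and were read from the RefSeq promoter windows of GRCh38.p14, where 32 of the 44 genes had an entry. They are written 5′ to 3′ on the plus strand, and capitals mark each CCAAT (or ATTGG, its reverse complement) and each GGGCGG (or CCGCCC) found.

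COL4A1 and COL4A2, chr13:110307158-110307283: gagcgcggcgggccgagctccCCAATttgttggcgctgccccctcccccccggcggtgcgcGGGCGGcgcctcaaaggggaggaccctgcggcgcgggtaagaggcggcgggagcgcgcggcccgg

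COL4A6 and COL4A5, chrX:108439588-108439708: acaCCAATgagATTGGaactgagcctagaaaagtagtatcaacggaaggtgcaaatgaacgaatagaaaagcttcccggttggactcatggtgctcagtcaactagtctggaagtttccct

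The 126 bases of the first pair are all that lies between the 2 genes, whereas the window of the second pair is the part covered from both sides, 121 of 379 bases. The stretch between COL4A1 and COL4A2 had a GC content of 80.2%, above the median of 60.3% over the 35116 promoter windows of the same length. It held 1 CCAAT and 1 GGGCGG, letters that 21.1% and 34.6% of those windows also hold. The COL4A6 and COL4A5 stretch had a GC content of 44.6% and 2 CCAAT in opposite directions, and 20.6% of windows of its length hold at least 1. TATAAA, which 5.87% of windows of 126 bases hold on either strand, was in neither. These matches describe letters and say nothing about which factors bind there.

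Cells were sorted into classes by markers that included no collagen. Muscle-gated cells had at least 40 UMIs of 7 sarcomere genes per 10000 UMIs of the cell, and numbered 3967 of 5683 cells at day 11 (69.8%), 2013 of 3795 with DMSO (53.0%) and 1540 of 5607 with CHIR (27.5%). Non-muscle stromal cells, below the muscle, epithelial and endothelial gates, numbered 1228, 1662 and 3774. They are a range of cells and not one type, since 529, 874 and 2942 of them passed a gate of 8 per 10000 on mesenchymal genes such as POSTN, LUM and DCN. Cells within a factor of 2 of the muscle threshold were 12.2%, 16.1% and 5.90% of the libraries. The muscle genes had a median of 190.2, 149.7 and 149 per 10000 in muscle-gated and 12.6, 12.1 and 4.95 in stromal cells. The mesenchymal genes had 1.43, 0.696 and 0.979 in muscle-gated and 6.58, 9.16 and 14.6 in stromal cells, in the same order of libraries.

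Epithelial-gated cells, with endoderm markers, numbered 293, 85 and 62, and endothelial-gated cells numbered 58, 20 and 38. Muscle-gated cells that also passed another gate were set aside as mixed (137, 15 and 193 cells). The libraries held 75906387, 65675862 and 81076689 UMIs before doublets were removed. Doublet calls (220 of 4015 cells) were removed with DMSO, while the caller marked 1 cell at day 11 and 0 with CHIR, so doublets remain in those libraries. The libraries shared 3 to 6 cell barcodes in pairs. The median muscle-gated cell held 11772, 12887 and 14864.5 UMIs, the median stromal cell 16258.5, 17367.5 and 11738.5, and the median epithelial-gated cell 16062, 20474 and 19634.5.

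Collagen transcripts were more abundant in stromal than in muscle-gated cells of every library, and the classes differed in which collagens they held. Levels are CPM, the UMIs of a gene summed over the cells of a class per 1000000 UMIs of those cells. One UMI stands for one transcript end, so no division by length was made and levels of different genes are set side by side. Day 11 is less sure in this respect, since longer genes stood higher there than at day 15 (values are given with that comparison) and it is not known whether intron reads were counted, so the order of genes of unequal length there may not be that of their transcripts. All collagens together reached 3179 CPM in muscle-gated and 5675 CPM in stromal cells at day 11. With DMSO they reached 1461 and 2879 CPM, and with CHIR 2032 and 3841 CPM. Fibrillar chains made up 66.7%, 75.1% and 67.5% of the collagen UMIs of stromal cells and 37.7%, 40.6% and 31.1% of those of muscle-gated cells, for day 11, DMSO and CHIR. The most abundant single collagen of muscle-gated cells was COL18A1 in all 3 libraries, with 13.9%, 15.9% and 19.8% of their collagen UMIs. In stromal cells it was COL1A1 at day 11 (22.8%) and COL3A1 with DMSO (30.3%) and CHIR (27.7%).

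**Figure D1:**
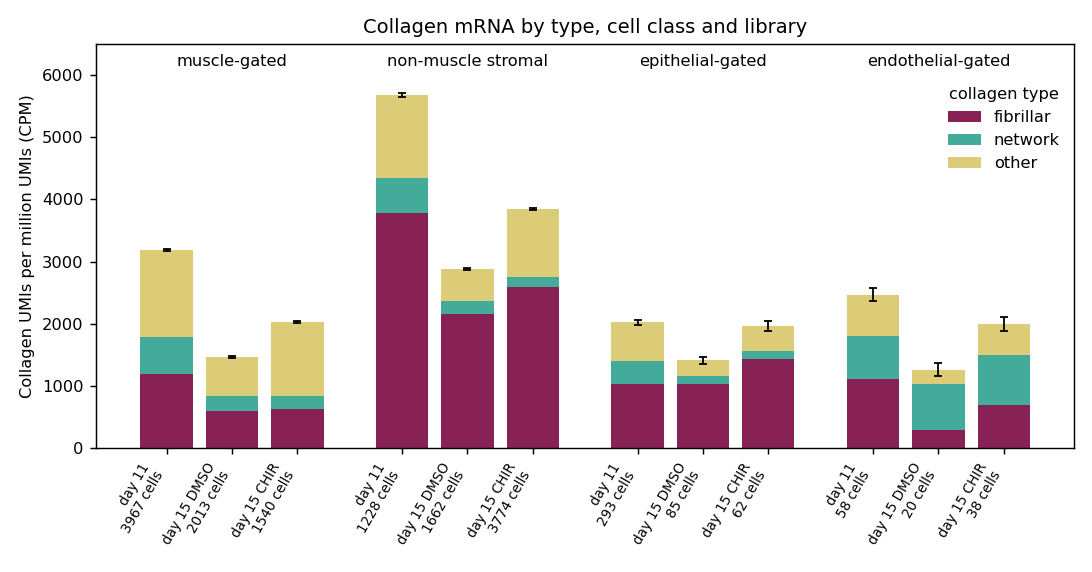
Summed collagen level in CPM for each cell class and library, split into fibrillar, network and other types, with the number of cells below each bar and the 95% counting interval of the total as error bar. Of the 4 classes drawn stromal cells stand highest in each library, from 2879 to 5675 CPM, and the fibrillar part makes up most of that height.

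A gene was taken as measured in a comparison when its UMIs over both sides reached 20, and as higher or lower when the ratio of its CPM values was 2 or more, or 0.5 or less. In stromal against muscle-gated cells at day 11, 12 of 38 measured collagen genes were higher and 8 lower, where 11.1% of all measured genes were higher and 23.4% lower. With DMSO 14 of 33 were higher and 8 lower, against 11.9% and 23% of all genes. With CHIR 16 of 34 were higher and 9 lower, against 13.6% and 14.6%. The share of collagen genes higher in stroma was thus above that of all genes in each library. The share lower was near that of all genes at day 11 and with DMSO and above it with CHIR. Of the 33 genes measured in all 3 libraries, 11 were higher in stroma in each, 5 were lower in each and 6 stayed between in each. Such joint counts were not made over all genes, so whether they are unusual is not known.

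The 11 were the fibrillar chains COL1A1, COL1A2, COL3A1 and COL5A2, the network chains COL8A1 and COL8A2, and COL6A3, COL6A6, COL9A2, COL9A3 and COL12A1. The 5 were the fibrillar chains COL2A1 and COL11A2, the anchoring fibril chain COL7A1, the transmembrane collagen COL13A1 and the FACIT chain COL22A1. All 4 of the measured collagen IV genes, COL6A1 and COL6A2 made up the 6. The chains of one collagen did not always fall together. Some of the 11 were less firm. With the muscle threshold halved, the DMSO log2 ratio was 0.03 for COL6A6, 0.56 for COL8A1 and 0.97 for COL9A2, and that of COL6A6 at day 11 was 0.92. Against mesenchymal-gated stroma alone, COL8A1 had 0.21 at day 11 and 0.91 with DMSO, COL6A6 had 0.54 and 0.98, and COL9A2 had 0.43 with DMSO.

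**Figure D2:**
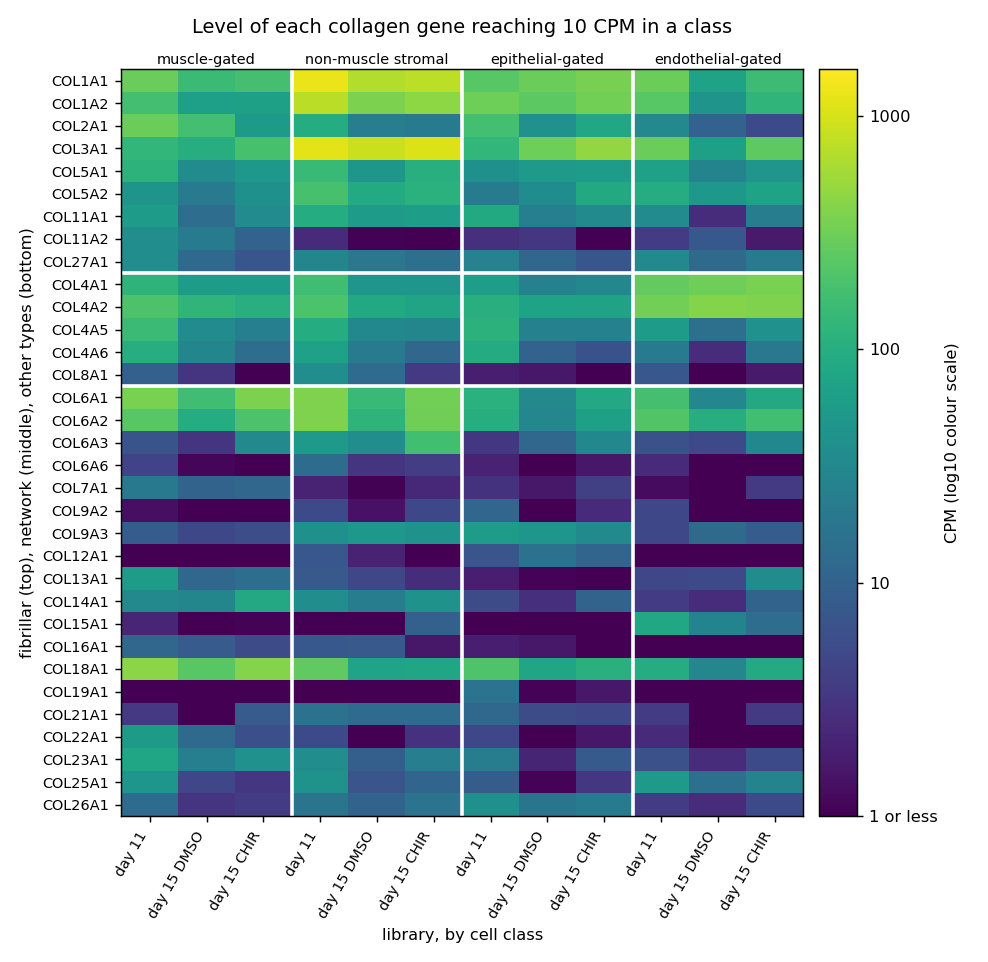
Level in CPM, on a log10 colour scale, of each collagen gene that reached 10 CPM in a class, by cell class and library, with values of 1 CPM or less in the darkest colour. COL1A1, COL1A2 and COL3A1 are brightest in stromal cells, COL4A1 and COL4A2 in endothelial-gated cells, and COL18A1 and COL6A1 are bright in muscle-gated cells.

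Among fibrillar collagens, COL3A1, the single chain of collagen III of pliable tissue, stood at 1184, 872 and 1064 CPM in stromal cells and at 132, 99.3 and 185 CPM in muscle-gated cells, for day 11, DMSO and CHIR. The ratio of stroma to muscle was 8.94 (95% counting interval 8.69 to 9.19), 8.78 (8.44 to 9.14) and 5.76 (5.59 to 5.94). Stromal cells were high and muscle-gated cells low in each library, and stromal cells supplied 74.0%, 88.8% and 84.9% of all COL3A1 UMIs.

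COL1A1, the α1 chain of collagen I, the chief fibre collagen of bone, skin and scar, followed the same order. Its level in stromal cells was 1295, 683 and 755 CPM, and in muscle-gated cells 296, 152 and 181 CPM. COL1A2, its α2 partner chain, stood at 747, 365 and 458 CPM in stroma and 175, 63.1 and 66.8 CPM in muscle. The stromal level of COL1A1 was 4.38, 4.49 and 4.16 times the muscle level, and that of COL1A2 4.28, 5.79 and 6.86 times. COL5A2, a chain of collagen V, which starts and limits collagen I fibres, was 4.17, 4.33 and 2.70 times higher in stroma. Its partner COL5A1 was 1.27, 1.44 and 2.07 times higher, so the chains of collagen V did not keep one ratio. There were 2.59 COL5A1 UMIs per COL5A2 UMI in muscle-gated cells at day 11 and 0.786 in stromal cells.

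The low fibrillar level of muscle-gated cells was set beside that of other classes of the same library. To compare shares of cells at one depth, each cell was thinned to 5000 UMIs. A COL3A1 UMI was then seen in 19.0%, 18.8% and 40.6% of muscle-gated cells, in 15.4%, 50.6% and 64.5% of epithelial-gated cells and in 92.1%, 90.6% and 95% of stromal cells. For COL1A1 the shares were 55.7%, 40% and 44.4% in muscle-gated and 39.7%, 56.5% and 56.5% in epithelial-gated cells. Both muscle shares of day 15 were at or below those of epithelial-gated cells, so expression of these chains by muscle cells is not read from them. The epithelial-gated cells of DMSO and CHIR are an imperfect reference, since their median mesenchymal marker level was 9.86 and 6.43 per 10000. Endothelial-gated cells, few in number, held a COL1A1 UMI in 19.0%, 15% and 28.9% of cells. The ratio of COL1A1 to COL3A1 UMIs was 2.23 in muscle-gated and 1.09 in stromal cells at day 11, 1.53 and 0.783 with DMSO, and 0.982 and 0.709 with CHIR. Within stroma it also varied, at 0.912 in mesenchymal-gated and 1.42 in the other stromal cells at day 11, and the source of the UMIs in muscle-gated cells was not tested.

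COL2A1 and COL11A2, fibrillar chains known from cartilage, showed the opposite order. COL2A1, the main fibre chain of cartilage, which the early embryonic heart also expresses, stood at 302, 174 and 55.4 CPM in muscle-gated cells and at 95.8, 23.6 and 20.7 CPM in stromal cells. It was 3.16-fold lower in stroma at day 11 (3.01 to 3.31), 7.37-fold lower with DMSO (6.82 to 7.98) and 2.67-fold lower with CHIR (2.46 to 2.90). Muscle-gated cells supplied 81.7%, 84.3% and 50% of its UMIs. After thinning, 66.8%, 47.9% and 24.0% of muscle-gated cells held a COL2A1 UMI, against 30.0%, 8.43% and 8.55% of stromal and 44.2%, 12.9% and 27.4% of epithelial-gated cells. With CHIR the muscle share was thus below that of the 62 epithelial-gated cells. After thinning, 0 of 38 endothelial-gated cells held a UMI, which allows a share of up to 7.89%. Before thinning they supplied 0.111% of the 2702 COL2A1 UMIs with CHIR.

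COL11A2, a chain of the minor cartilage collagen XI, had the largest ratio toward muscle-gated cells of the measured collagen genes in each library. It stood at 36.9, 21.5 and 10.3 CPM in muscle and 2.51, 1.04 and 0.656 CPM in stroma, which is 14.7-fold, 20.7-fold and 15.7-fold lower in stroma. Its partner COL11A1 did not share this order, at 57.0, 13.9 and 34.6 CPM in muscle and 96.0, 58.0 and 62.3 CPM in stroma, and was 4.17 times higher in stroma with DMSO (3.72 to 4.68) and under 2-fold in the other libraries. COL27A1, a fibrillar chain of developing cartilage, was between the thresholds at day 11 and with DMSO and 2.10 times higher in stroma with CHIR. With mixed cells counted as muscle-gated, the CHIR log2 ratios of COL27A1 and COL5A1 were 0.87 and 0.79, inside 2-fold. COL5A3 and COL24A1 were rare, with 14 and 88 UMIs in all. Markers of cartilage cells were low beside COL2A1 in muscle-gated cells. In stroma their sum was below COL2A1 and above COL11A2 in each library. SOX9, ACAN, MATN4 and CNMD together had 7.41, 4.08 and 4.71 CPM in muscle-gated and 27.6, 13.4 and 17.3 CPM in stromal cells, with SOX9 the highest of them and ACAN at 0 in muscle-gated cells with DMSO.

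Among network collagens the collagen IV chains stayed within 2-fold between stroma and muscle, except COL4A6 with DMSO against mesenchymal-gated stroma alone (log2 ratio -1.16). COL4A1 and COL4A2, the chains of the collagen IV found in nearly all basement membranes, stood at 120.0 and 203 CPM in muscle-gated cells at day 11, 57.3 and 124 with DMSO and 57.9 and 105 with CHIR. In stromal cells they stood at 164 and 198 CPM, 46.1 and 88.2, and 47.3 and 73.0. Endothelial-gated cells were the highest class, with 273, 315 and 357 CPM of COL4A1 and 327, 401 and 383 CPM of COL4A2. Network chains made up 27.7%, 58.2% and 40.3% of the collagen UMIs of endothelial-gated cells. Blood vessel cells are known for a thick basement membrane, and these values rest on 58, 20 and 38 cells.

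COL4A1 had fewer UMIs than COL4A2 in each class, at 0.591, 0.463 and 0.550 per COL4A2 UMI in muscle-gated cells, 0.830, 0.523 and 0.648 in stromal cells and 0.836, 0.786 and 0.932 in endothelial-gated cells. COL4A5 and COL4A6, whose shared stretch is shown above and which serve basement membranes of smooth muscle and epithelium, stood at 153 and 99.7 CPM in muscle-gated cells at day 11. They stood at 35.1 and 29.3 CPM with DMSO and 24.1 and 13.9 CPM with CHIR. COL4A5 had 1.54, 1.20 and 1.73 UMIs per COL4A6 UMI in muscle and 1.41, 1.54 and 2.56 in stroma. COL4A3 and COL4A4, the pair of kidney and lung basement membrane, had 6 and 45 UMIs in all. In thinned muscle-gated cells, COL4A2 was seen in 65.5% of cells with a COL4A1 UMI and 54.7% of those without at day 11, in 55.6% and 43.6% with DMSO and in 45.8% and 38.4% with CHIR.

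COL8A1, a short network chain of vessel walls and valves, was 3.90, 4.25 and 4.00 times higher in stroma, where it stood at 37.4, 13.3 and 3.44 CPM. COL8A2, its partner, was lower still at 3.39, 2.88 and 3.90 CPM in stroma. It had 10, 4 and 0 UMIs in muscle-gated cells, where 0 allows up to 0.123 CPM. COL10A1, the network chain of growth plate cartilage, had 17 UMIs in all.

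Among the other types, COL18A1 was the most abundant collagen of muscle-gated cells. It encodes a multiplexin of basement membranes, whose tail can be released as endostatin. It stood at 443, 232 and 402 CPM in muscle-gated cells and at 262, 74.6 and 78.1 CPM in stromal cells. Stroma was 1.69-fold lower at day 11, 3.10-fold lower with DMSO (2.96 to 3.26) and 5.15-fold lower with CHIR (4.96 to 5.34). After thinning, 84.3%, 65.9% and 85.7% of muscle-gated cells held a UMI, against 66.5%, 31.8% and 29.5% of stromal and 56.5%, 29.4% and 35.5% of epithelial-gated cells. COL15A1, the second multiplexin, was low in muscle (2.21, 0.0755 and 1.07 CPM) and highest in endothelial-gated cells at 83.5, 27.8 and 13.8 CPM. The 58 endothelial-gated cells supplied 34.0% of its day 11 UMIs.

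Collagen VI divided by chain. COL6A1 and COL6A2, which lie near each other on chromosome 21, were near even between classes, with COL6A1 at 363, 166 and 369 CPM in muscle-gated and 383, 146 and 331 CPM in stromal cells. COL6A3, the long chain that completes the collagen VI molecule, stood at 6.87, 3.14 and 32.4 CPM in muscle and at 54.0, 36.6 and 170.4 CPM in stroma. It was 7.87, 11.7 and 5.26 times higher in stroma. For each COL6A1 UMI there were 0.0189, 0.0189 and 0.0877 COL6A3 UMIs in muscle-gated cells and 0.141, 0.251 and 0.515 in stromal cells. COL6A6, an alternative to the long chain, was also higher in stroma (13.7, 3.11 and 3.78 CPM), and COL6A5 had 15 UMIs in all.

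Membrane and FACIT collagens held most of the remaining genes tied to muscle. COL13A1, a transmembrane collagen of muscle attachment and nerve contact sites, stood at 58.2, 11.9 and 14.2 CPM in muscle and 7.81, 4.76 and 2.64 CPM in stroma. COL22A1, a FACIT known from muscle-tendon junctions, stood at 54.8, 12.5 and 6.11 CPM in muscle and 5.26, 1.00 and 2.82 CPM in stroma. COL7A1, the anchoring fibril chain of skin, stood at 19.6, 10.5 and 11.4 CPM in muscle and 2.06, 1.04 and 2.35 CPM in stroma. All 3 were lower in stroma by at least 2-fold in each library, between 2.16-fold for COL22A1 with CHIR and 12.4-fold for the same gene with DMSO. COL23A1, also transmembrane, was 2.08-fold and 2.62-fold lower in stroma at day 11 and with DMSO and 1.79-fold lower with CHIR. Its day 11 value fell inside 2-fold under 5 alternatives, with log2 ratios from -0.96 to -0.74.

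Among FACIT chains, COL9A2, COL9A3 and COL12A1 were higher in stroma in each library, and COL22A1 was lower in each. COL9A3, a chain of the cartilage collagen IX, stood at 40.2, 50.4 and 43.1 CPM in stroma and 8.64, 4.99 and 5.70 CPM in muscle, while COL9A1, another chain of it, stood at 8.87, 8.80 and 4.43 CPM in muscle and was 3.67-fold and 4.20-fold lower in stroma with DMSO and CHIR. COL12A1, which coats collagen I fibres in dense tissue, was 8.56 times higher in stroma at day 11 but reached only 7.32 CPM there. COL21A1, a FACIT of vessel walls, was 4.67 and 12.8 times higher in stroma at day 11 and with DMSO and 1.58 times with CHIR. COL14A1, which regulates fibre growth, stood at 36.6, 22.2 and 42.9 CPM in stroma and 32.5, 29.3 and 86.0 CPM in muscle. COL16A1 was 3.37-fold lower in stroma with CHIR, at 1.63 against 5.49 CPM, and under 2-fold in the other libraries. COL26A1, placed in no type, was 3.49 and 4.43 times higher in stroma with DMSO and CHIR and 1.31 times at day 11 (its DMSO log2 ratio was 0.99 at a halved muscle threshold), and COL25A1, a transmembrane collagen of nerve and developing muscle, was 3.38 times higher in stroma with CHIR. COL19A1 was rare, with 126 UMIs in all, and 67.5% of its 117 day 11 UMIs came from the 293 epithelial-gated cells.

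**Figure D3:**
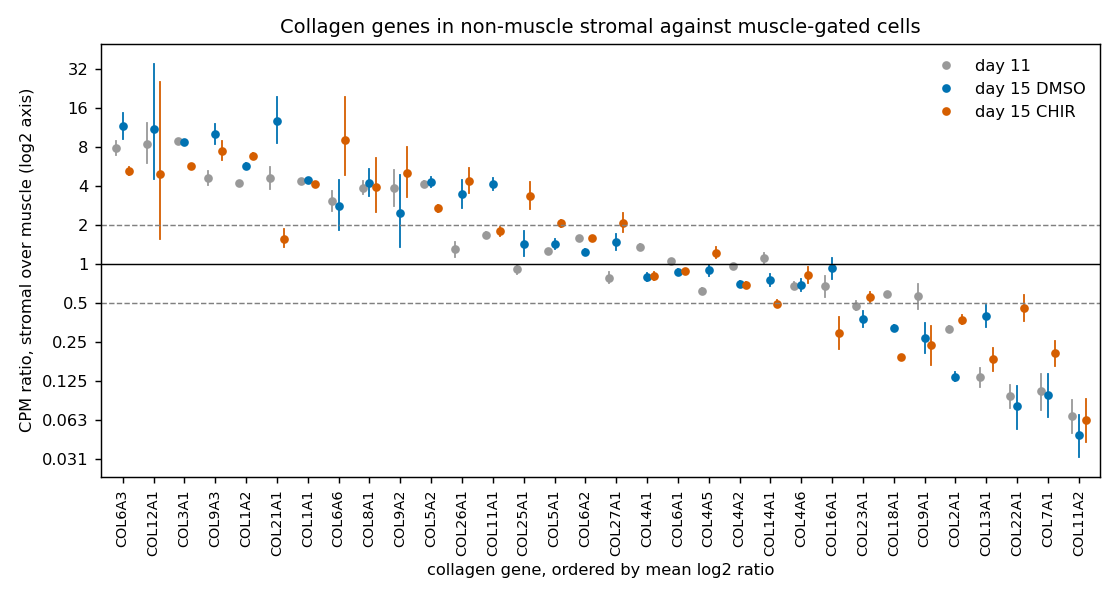
Ratio of CPM in stromal over muscle-gated cells (log2 axis) for the collagen genes measured in all 3 libraries with UMIs on both sides, with 95% counting intervals as vertical lines and 2-fold marked by dashed lines. COL6A3, COL3A1 and COL1A2 lie above 2 in each library, the COL4 genes lie near 1, and COL11A2 lies lowest.

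Fibrillar collagens were lowest in the cells with the most muscle markers, and network collagens did not follow that order. Cells outside the epithelial- and endothelial-gated classes, mixed cells included, were divided by their muscle gene UMIs per 10000. At day 11 the fibrillar level was 3738 CPM in cells under 5, 3345 CPM between 20 and 40, 1526 CPM between 80 and 160 and 904 CPM at 160 or more. Network collagens were at 581, 567, 553 and 588 CPM in the same ranges. The fibrillar order was not steady in the low ranges, with 4163 CPM between 5 and 10 and 3937 CPM between 10 and 20. With DMSO the fibrillar level was 2108 CPM in the lowest range, 2431 CPM between 5 and 10 and 467 CPM in the highest. With CHIR it went from 2821 to 428 CPM between the lowest and the highest range. Network collagens stood at 211 and 255 CPM in these ranges with DMSO and ran from 176 to 296 CPM over all ranges. With CHIR they stood at 170.1 and 244 CPM and ran from 163 to 244 CPM. The intermediate range just above the threshold, 40 to 80, still held 2617, 1420.4 and 1860.5 CPM of fibrillar chains. The part of doublets and of free RNA in this was not tested.

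**Figure D4:**
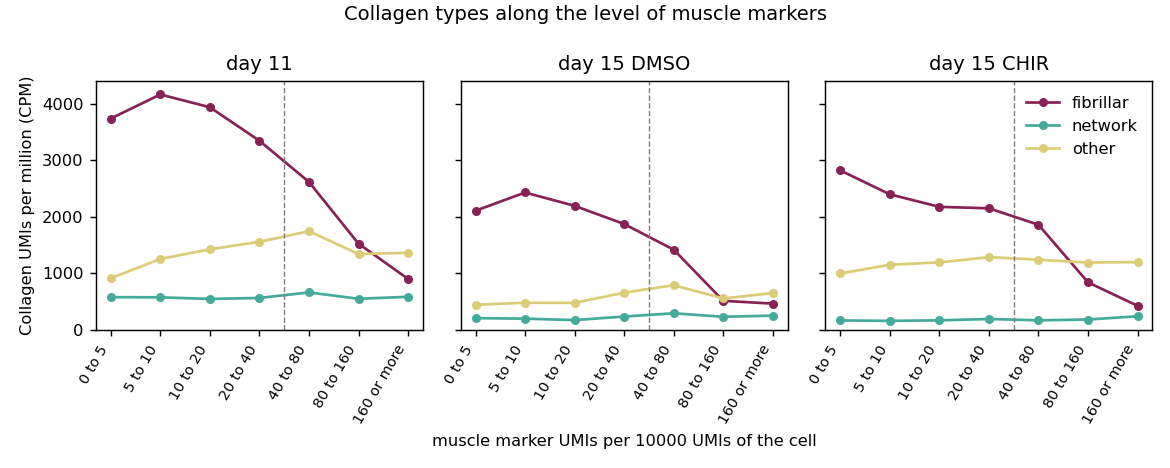
Summed CPM of fibrillar, network and other collagens in cells ordered by muscle marker UMIs per 10000, one panel per library, with the muscle threshold as a dashed line. The fibrillar line falls to 904, 467 and 428 CPM in the highest range, while the network line runs between 550 and 665, 176 and 296, and 163 and 244 CPM.

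The CHIR library was then set against DMSO at day 15. Total collagen was higher with CHIR in both classes, at 2032 against 1461 CPM in muscle-gated and 3841 against 2879 CPM in stromal cells, and COL6A1, COL6A2, COL6A3 and COL15A1 were higher in both. In muscle-gated cells 7 of 32 measured collagen genes were higher with CHIR and 6 lower, where 8.78% of all measured genes were higher and 15.1% lower. In stromal cells 9 of 34 were higher and 4 lower, against 19.4% and 14.3% of all genes. The share of collagen genes higher was above that of all genes, more so in muscle-gated cells, and the share lower was near it in both classes. The median log2 ratio was 0.22 over collagen genes and -0.02 over all genes in muscle-gated cells, and 0.21 and 0.14 in stromal cells. Among genes spanning at least 78305 bases, 5 of 22 collagen genes were higher and 3 lower in stroma, against 23.8% and 10.9% of all such genes. Their median log2 ratio was 0.08, beside 0.40 for all those genes. In muscle-gated cells, 5 of 21 collagen genes from 77992.5 bases up were higher and 4 lower, against 10.4% and 10.5%, with medians of 0.26 and 0.15. The part of gene length was not tested. Of the 32 genes measured in both classes, 4 were higher in both, 1 was lower in both, 13 were between in both, and 1 (COL22A1) was past the threshold in opposite directions. The same joint counts were not made over all genes, so no share stands beside them.

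**Figure D5:**
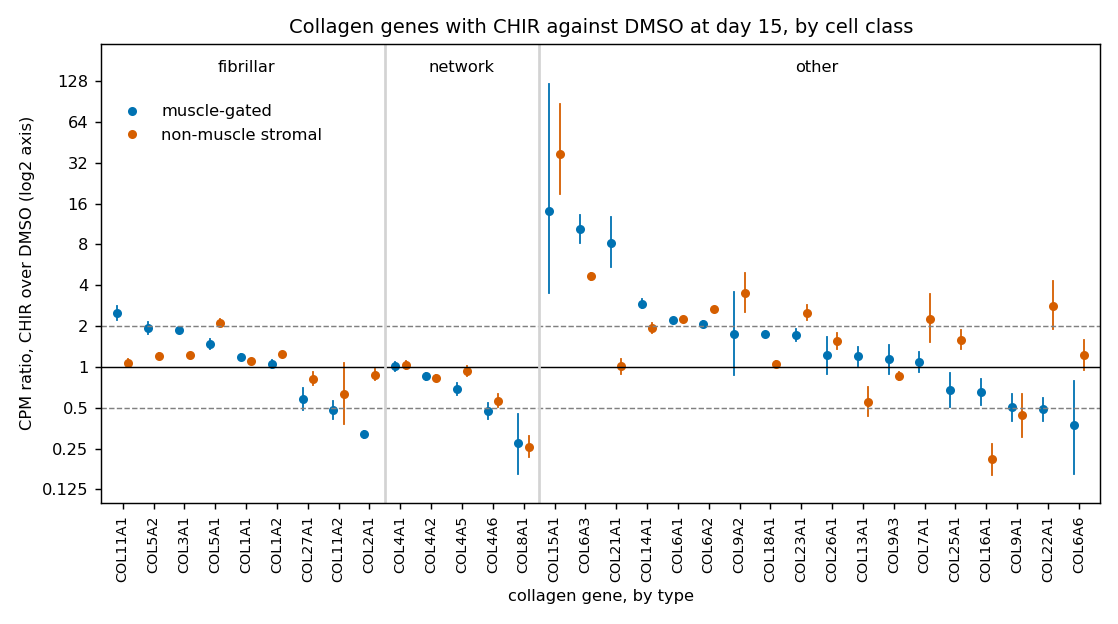
Ratio of CPM with CHIR over DMSO (log2 axis) for the 32 collagen genes measured in both classes, grouped by type, with 95% counting intervals as vertical lines and 2-fold marked by dashed lines. COL15A1, COL6A3 and COL6A1 lie above 2 in both classes, COL8A1 lies below 0.5 in both, and COL1A1 and COL4A1 lie near 1.

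Of the 9 measured fibrillar genes, 1 was higher and 2 lower in muscle-gated cells, where 8.78% of all genes were higher and 15.1% lower. In stromal cells 1 of 9 was higher and 0 lower, where the shares over all genes were 19.4% and 14.3%. The median log2 ratio of the fibrillar genes was 0.25 in muscle-gated and 0.14 in stromal cells. COL1A1 stood at 181 against 152 CPM in muscle and 755 against 683 CPM in stroma, ratios of 1.19 (1.14 to 1.24) and 1.11 (1.09 to 1.12). COL3A1 stood at 185 against 99.3 CPM in muscle, a ratio of 1.86 (1.77 to 1.95), and at 1064 against 872 CPM in stroma. Neither chief fibre chain reached 2-fold in either class. The muscle value of COL3A1 passed it under other choices, with a log2 ratio of 1.59 at a doubled muscle threshold and 1.55 with mixed cells counted as muscle-gated. COL5A2 stood at 40.4 against 20.8 CPM in muscle, inside 2-fold, and passed it under the same choices, with 1.19 and 1.21. Without genes of mitochondria and ribosomal proteins in the totals, COL3A1 had 1.09 and COL5A2 1.16. In muscle-gated cells at 160 or more muscle UMIs per 10000, a limit chosen after the data were seen, the log2 ratio of COL3A1 was 1.61 and that of COL5A2 1.18, past 2-fold. COL5A1 was 2.11 times higher in stroma, at 105 against 49.9 CPM, and with TMM factors its log2 ratio was 0.997, just short of 2-fold.

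COL2A1 showed the largest fibrillar difference in muscle-gated cells. It stood at 55.4 CPM with CHIR and 174 CPM with DMSO, 3.15-fold lower (2.96 to 3.35), from 1351 and 4615 UMIs. In thinned muscle-gated cells its share was 24.0% with CHIR (21.9 to 26.2) and 47.9% with DMSO (45.7 to 50.2). In stromal cells it was 20.7 against 23.6 CPM, 1.14-fold lower (1.04 to 1.25). COL11A2 was 2.08-fold lower in muscle (1.79 to 2.42) at 10.3 against 21.5 CPM, and its log2 ratio was -0.86, short of 2-fold, once genes of mitochondria and of ribosomal proteins were dropped from the totals. It was also short of 2-fold at a halved muscle threshold (-0.88) and without the 6% highest doublet scores (-0.95). COL11A1 was 2.49 times higher in muscle (2.20 to 2.82) at 34.6 against 13.9 CPM. Its level in stromal cells was 62.3 and 58.0 CPM, and its thinned share in muscle-gated cells of 15.3% compares with 4 of 62 epithelial-gated cells (6.45%). In muscle-gated cells at 160 or more the log2 ratio of COL11A1 was 0.92 and that of COL11A2 -0.72, both inside 2-fold. The chains of collagen XI thus differed from DMSO in opposite directions in muscle-gated cells, by amounts close to the threshold under several choices.

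No network collagen was 2-fold higher in either class, and their largest log2 ratios were 0.01 in muscle and 0.43 in stroma. COL4A1 stood at 57.9 against 57.3 CPM in muscle, a ratio of 1.01 (0.939 to 1.09), and at 47.3 against 46.1 CPM in stroma, a ratio of 1.03 (0.961 to 1.10). COL4A2 was at 0.850 and 0.828 of its DMSO level in muscle and stroma. Both intervals for COL4A1 include 1. COL4A6 was 2.11-fold lower in muscle (1.86 to 2.41) and 1.78-fold lower in stroma. Its muscle log2 ratio was -0.88 without genes of mitochondria and ribosomal proteins and -0.74 in cells at 160 or more muscle UMIs per 10000, both short of 2-fold. COL4A5, across the shared stretch, was 1.46-fold lower in muscle and 1.07-fold lower in stroma. COL8A1 was 3.64-fold lower in muscle, from 21 and 83 UMIs, and 3.87-fold lower in stroma (3.23 to 4.65) at 3.44 against 13.3 CPM. Its log2 ratio in muscle was -0.65 when the muscle threshold was doubled.

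Among the collagen VI chains, COL6A1, COL6A2 and COL6A3 were past 2-fold in both classes. COL6A6 was not, with 10 and 29 UMIs in muscle-gated cells, a ratio of 0.374 (0.163 to 0.790), and a ratio of 1.21 in stroma. Its muscle log2 ratio was -0.62 with mixed cells counted as muscle-gated. COL6A1 stood at 369 against 166 CPM in muscle, 2.23 times higher (2.15 to 2.31), and at 331 against 146 CPM in stroma, 2.26 times higher (2.19 to 2.34). COL6A2 was 2.08 times higher in muscle (1.98 to 2.18) and 2.67 times in stroma (2.58 to 2.77). The muscle value of COL6A2 fell just under 2-fold under 5 alternatives, with log2 ratios from 0.88 to 0.97. COL6A3 was 4.65 times higher in stroma (4.37 to 4.96), at 170.4 against 36.6 CPM, and held in 48.8% of thinned CHIR stromal cells against 15.3% with DMSO. The difference of COL6A3 was larger than that of its partner chains, so that COL6A3 UMIs per COL6A1 UMI were 0.515 with CHIR and 0.251 with DMSO in stroma.

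In muscle-gated cells COL6A3 was 10.3 times higher (8.23 to 13.1), at 32.4 against 3.14 CPM. Doublets were removed with DMSO and not with CHIR, and the low DMSO level depended on such choices. As reported it was past 2-fold lower than at day 11. With no doublet removed that log2 ratio was -0.19, and at a halved muscle threshold 0.13. The thinned COL6A3 share of muscle-gated cells was 10.1% with CHIR and 1.08% with DMSO. It was at or below that of epithelial-gated cells (11.3%, 7 of 62, and 5.88%, 5 of 85), so expression by muscle cells is not read from it. Of the 7 mesenchymal gate genes, 6 were higher in CHIR muscle-gated cells, among them POSTN (65.2 against 4.38 CPM), LUM (20.5 against 10.1) and DCN (17.3 against 5.06), and PDGFRA was lower (13.9 against 45.5). A further list of 8 stromal genes summed to 77.3 against 199 CPM, with S100A6 (16.6 against 124) and MFAP4 (4.43 against 33.1) lower and PRRX1 (20.7 against 3.40) higher. The muscle level as a share of the stromal level was 19.0% for COL6A3 with CHIR and 8.56% with DMSO. Over the 7 mesenchymal gate genes the median share was 11.9% with CHIR and 9.02% with DMSO. Muscle-gated cells past that gate were set aside as mixed, which limits these shares, so they give no reference for COL6A3. Over 6 genes of the further list, which is outside the gates, the median share was 19.9% with CHIR and 15.0% with DMSO. These shares ran from 10.5% to 59.7% and from 8.62% to 84.8%. The part of stromal genes in the COL6A3 difference was not tested. COL6A1, by contrast, had a thinned share of 78.1% in CHIR muscle-gated cells and 24.2% in epithelial-gated cells.

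FACIT chains moved in several directions. COL14A1 was 2.93 times higher in muscle (2.70 to 3.19), at 86.0 against 29.3 CPM, and 1.93 times in stroma, at 42.9 against 22.2 CPM. The CHIR level in muscle-gated cells was above that of stroma, and its thinned share there was 33.6%, against 16.1% of stromal and 4.84% of epithelial-gated cells. COL21A1 was 8.20 times higher in muscle (5.47 to 12.7), from 204 and 27 UMIs, and at 13.2 against 13.1 CPM in stroma. Its thinned share in CHIR muscle-gated cells was 3.68%, near that of epithelial-gated cells (2 of 62, 3.23%). COL16A1, a chain that links fibres to cells, was 4.79-fold lower in stroma (3.71 to 6.23) and 1.53-fold lower in muscle. COL12A1 was 3.42-fold lower in stroma from 31 and 65 UMIs, and COL9A1 2.28-fold lower there. Among stromal cells that passed the mesenchymal gate, COL9A1 had a log2 ratio of -0.05. COL9A2 was 3.49 times higher in stroma (2.52 to 4.92), at 4.97 against 1.43 CPM.

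COL22A1 went in opposite directions. In muscle-gated cells it stood at 6.11 against 12.5 CPM, a ratio of 0.488 (0.400 to 0.594), and in stromal cells at 2.82 against 1.00 CPM, a ratio of 2.81 (1.89 to 4.29) from 142 and 31 UMIs. The muscle value lay close to the threshold, with log2 ratios of -0.85 with the muscle threshold halved and -0.998 with TMM factors. The transmembrane collagen COL23A1 was 2.51 times higher in stroma (2.20 to 2.86) and 1.72 times in muscle. COL7A1 was 2.26 times higher in stroma from 118 and 32 UMIs (log2 ratio 0.76 at a doubled muscle threshold) and at 11.4 against 10.5 CPM in muscle.

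Of the multiplexins, COL15A1 was past 2-fold with CHIR in both classes and COL18A1 in neither. COL15A1 stood at 9.64 against 0.259 CPM in stroma, 37.2 times higher (18.7 to 86.6) from 485 and 8 UMIs, the largest ratio of any collagen gene in either class. In muscle-gated cells it had 26 UMIs with CHIR and 2 with DMSO, a ratio of 14.1 (3.53 to 123). After thinning, 4.03% of CHIR stromal cells held a COL15A1 UMI, so a minority carried it at this depth. COL18A1 was 1.73 times higher in muscle (1.68 to 1.79), at 402 against 232 CPM, and 1.05 times in stroma.

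Day 15 with DMSO was next set against day 11. These libraries differ in day and in every other aspect of their making, and the notes for day 11 name other software, so day and library cannot be told apart. No measured collagen gene was 2-fold higher at day 15 and most were 2-fold lower. In muscle-gated cells 0 of 37 were higher and 26 lower, where 3.23% of all measured genes were higher and 38.3% lower. In stromal cells 0 of 34 were higher and 21 lower, against 3.63% and 37.8%. The median log2 ratio of collagen genes was -1.56 in muscle and -1.21 in stroma, and that of all genes -0.66 and -0.62.

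Gene length moved with this comparison. Across genes with a length in RefSeq, the Spearman correlation between the genomic span of a gene and its log2 ratio was -0.62 in muscle-gated and -0.51 in stromal cells, described over 15220 and 14562 genes that share the same 2 libraries. Of the 37 measured collagen genes 26 spanned at least 80522 bases, and 22 of these were lower, where 78.0% of all genes of such length were lower. Their median log2 ratio was -1.88, beside -1.76 for all those genes. In stroma 15 of 22 collagen genes from 80533 bases up were lower, where 69.8% of all such genes were, and the medians were -1.52 and -1.57. The long collagen genes therefore sat near the other long genes, and the sources used here do not give the treatment of intron reads. With TMM factors 17 and 13 collagen genes were lower in place of 26 and 21. These factors shift all genes alike, so these counts cannot be set beside the 38.3% and 37.8% of all genes found lower without them. The part of gene length in the difference was not tested.

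Within this comparison the genes differed in the size of their ratios. Of the genes named next, COL25A1, COL13A1, COL22A1, COL9A1 and COL28A1 span more than 80522 bases, and COL2A1, COL3A1, COL9A3 and COL16A1 fewer. COL25A1, a transmembrane collagen, stood at 48.3 CPM at day 11 and 4.8 CPM with DMSO in muscle, 10.1-fold lower. In stroma it stood at 44.3 and 6.93 CPM, 6.39-fold lower. COL13A1 and COL22A1 were 4.90-fold and 4.38-fold lower in muscle. COL2A1 was 1.73-fold lower in muscle (1.68 to 1.79) and 4.05-fold lower in stroma (3.72 to 4.42). COL3A1 was 1.33-fold and 1.36-fold lower, and COL9A1 in muscle (8.80 against 8.87 CPM) and COL16A1 in stroma (7.81 against 7.62 CPM) were at the same level. COL9A3 was 1.26 times higher in stroma (1.15 to 1.37). COL28A1 had 73 UMIs in day 11 muscle-gated cells and 0 with DMSO, where 0 allows up to 0.113 CPM.

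Genes that build and break down collagen were read from lists of 18 genes for folding and modification, 11 for processing and cross-linking, 8 receptors and 12 for breakdown. With CHIR against DMSO in muscle-gated cells, folding genes had 0 higher and 2 lower of 17 measured, processing genes 0 and 4 of 11, receptors 1 and 2 of 7, and breakdown genes 0 and 0 of 6, where 8.78% of all genes were higher and 15.1% lower. P3H2, which hydroxylates prolines of collagen IV, was 3.18-fold lower (2.60 to 3.92) and P4HA1, a catalytic subunit of prolyl 4-hydroxylase, 2.11-fold lower, at 67.4 against 142 CPM. DDR2, a receptor kinase for fibrillar collagens, was 5.07 times higher (3.74 to 6.98), at 9.96 against 1.96 CPM. In stromal cells 1 of 18 folding genes was higher and 2 lower, 0 and 2 of 11 processing genes, 1 and 1 of 8 receptors and 1 and 1 of 8 breakdown genes, where the shares over all genes were 19.4% and 14.3%. LOX, a cross-linking enzyme, was 4.14-fold lower there (3.59 to 4.79), at 5.35 against 22.2 CPM. ITGA11, the α chain of an integrin for fibrillar collagens, was 12.8-fold lower from 15 and 118 UMIs. DDR2 was 2.60 times higher, at 70.1 against 27.0 CPM.

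Between classes, 3 to 5 of the 17 or 18 measured folding genes were higher in stroma in each library and 1 or 2 lower, where 11.1% to 13.6% of all genes were higher and 14.6% to 23.4% lower. Processing genes had 3 higher in each library, of 10 or 11 measured. PPIB, a prolyl isomerase of collagen folding, stood at 1341 CPM in stroma and 524 CPM in muscle at day 11, 2.56 times higher. PCOLCE, which speeds removal of the C-propeptide, was 2.58, 3.48 and 4.27 times higher in stroma for day 11, DMSO and CHIR. LOX was 14.4, 8.89 and 4.66 times higher and DDR2 7.57, 13.7 and 7.04 times higher. MMP2, a gelatinase, was 3.97, 2.65 and 3.95 times higher, and TIMP1, an inhibitor of such proteases, 3.08, 2.54 and 2.37 times. Other genes were lower in stroma, PLOD2, LOXL4, ADAMTS3 and ITGA2 at day 11, PLOD1, LOXL4 and DDR1 with DMSO and COLGALT2 with CHIR among them. TIMP3, a matrix-bound inhibitor, stood at 206, 69.2 and 80.7 CPM in muscle and 42.6, 8 and 6.16 CPM in stroma, and was 4.83-fold, 8.65-fold and 13.1-fold lower in stroma.

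Markers of other cell types stood beside the stromal values as follows. Epicardial genes (WT1, TBX18, UPK3B, BNC1, TCF21 and ALDH1A2) summed to 257, 331 and 103 CPM in stromal cells for day 11, DMSO and CHIR, with 5, 5 and 3 of 6 at 10 CPM or more. Smooth muscle genes (MYH11, ACTA2, CNN1 and TAGLN) summed to 4548, 2529 and 497 CPM, with 3 of 4 at 10 CPM or more in each. These sums differed between the stromal cells of the DMSO and CHIR libraries. A difference in the kinds of cell and a difference of level within a kind cannot be told apart here. The part of either in the stromal collagen differences was not tested. Among stromal cells that passed the mesenchymal gate, 10 collagen genes were higher with CHIR and 4 lower, in place of 9 and 4. The shares over all genes in those cells are not given here, so these counts stand without a reference. Of 3 blood genes, PTPRC was listed in no library and HBG1 only at day 11, so at day 15 only TYROBP could be read. The listed blood genes summed to 4.52, 4.15 and 0.636 CPM in stroma, and neural genes to 0.875 to 2.06 CPM.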

How the data were processed

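The authors deposited raw UMI counts per gene and cell, made with Cell Ranger 6.1.1 on GRCh38, per the submitters' processing notes, which also name R 4.1.0 and Seurat 4.3.0 for day 11. The sources used here do not give the treatment of intron reads, and the day 11 sample carries a protocol text that names day 15. Collagen genes and the other lists were chosen with earlier results of these data known.

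Counts were summed per class, with gates of 40 (muscle), 8 (mesenchymal) and 20 (epithelial) marker UMIs per 10000, or both EPCAM and CDH1 for epithelial cells, and at least 3 of 7 endothelial markers. Doublets were scored with Scrublet in scanpy 1.11.5 under Python 3.11.15 (numpy 2.4.6, scipy 1.17.1, pandas 2.3.3, matplotlib 3.10.9). Ratios of CPM carry exact conditional binomial 95% intervals, shares exact binomial ones, and 0.5 was added to both counts for log2 ratios. The ratio and its interval were tested on simulated data. Genes described singly reached 50 CPM in a class, or 2-fold with at least 100 UMIs in a comparison. Exceptions were rare genes named for completeness, chosen after their values were seen. Alternatives moved the gates, doublet removal, totals, filter and depth. H3K27ac libraries were not analysed here, and sequences are from RefSeq.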

Additional observations from a re-analysis of the deposited data

Results flagged for a closer look

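COL22A1, the FACIT chain of muscle-tendon junctions, lay on opposite sides of no change in the 2 classes when CHIR was set against DMSO. Its ratio was 0.488 in muscle-gated cells, from 149 and 331 UMIs, and 2.81 in stromal cells, from 142 and 31 UMIs. Each group had 1 library, and the difference was not tested.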

How the results depend on the processing

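Of the collagen genes' single ratios under the alternatives, 2450 stayed on their side of the 2-fold threshold, 83 fell inside it and 45 passed it. Direction was followed only for ratios past the threshold, so ratios inside it may have changed sign. Of those past it 1 reversed, COL6A3 for DMSO against day 11 in muscle-gated cells. Its log2 ratio was 0.13 at a halved muscle threshold, and the cause was not tested. In CHIR against DMSO, the muscle-gated count of genes lower was 3 with mitochondrial and ribosomal protein genes out of the totals and 10 with a filter of 1 UMI, which tests more genes, and the count higher was 11 with mixed cells included. The stromal count lower was 7 with the 1 UMI filter. With TMM factors the genes lower in DMSO than at day 11 numbered 17 and 13. The shares over all genes under these alternatives are not given here. Collagen CPM at day 11 in muscle-gated cells was 3344 and 3006 with the muscle threshold halved and doubled, 3068.5 without the 6% highest doublet scores, 3796 without mitochondrial and ribosomal protein genes, 3132 as a mean over cells and 3223 with mixed cells. The day 11 stromal level was 5752 and 5595 with the threshold halved and doubled, 7241 without those genes and 5829 as a mean over cells. With DMSO, muscle-gated cells had 1647 and 1334 at the 2 thresholds, 1585 with no doublet removed, 2008 without those genes and 1517 as a mean, and stromal cells had 2909, 2845, 4165 without those genes and 2949 as a mean. With CHIR, muscle-gated cells had 2065 and 1948 at the 2 thresholds, 1928 without the highest doublet scores, 3203 without those genes and 2289.9 with mixed cells, and stromal cells had 3796 at the doubled threshold, 6299 without those genes and 3886 as a mean. The share of muscle-gated cells with a COL2A1 UMI was 47.6%, 31.1% and 13.3% at 2500 UMIs and 85.0%, 72.5% and 48.6% unthinned, for day 11, DMSO and CHIR. For COL6A3 it was 1.49%, 0.497% and 4.55%, and 5.60%, 2.24% and 18.8%. The stricter muscle limit of 160 and the restriction to mesenchymal-gated stroma were chosen after seeing the data. No paired analysis was possible because each single-cell group has 1 library. Counts under 20 UMIs give no ratio, and 9 collagen genes had under 100 UMIs in all.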
